A study of Homo sapiens with 6 samples.

Results

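Cadherins are calcium-dependent adhesion receptors that span the cell membrane and bind the same or related receptors on the neighbouring cell. By the rule used here, the group takes in the protein-coding genes with CDH, CDHR and PCDH names, the giant cadherins FAT1 to FAT4, DCHS1 and DCHS2, and the seven-pass cadherins CELSR1 to CELSR3. The count table held 103 such genes among its 19657 protein-coding rows. Of these, 33 were expressed, which here means a mean of at least 1 CPM (read counts scaled to library size, with TMM factors between libraries, and not to gene length) over the 6 libraries. Another 14 stayed under that level but had enough counts to be tested, 38 had too few counts for a test, and 18 had 0 counts in every library.

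The libraries came from NCI-H1299, a human lung cancer line that the labels call lung adenocarcinoma. In 3 of them the cells overexpressed MTSS1, a membrane-binding scaffold protein of the actin cytoskeleton, from a plasmid with an mCherry tag, kept under hygromycin selection, then passed through a cell sorter. The other 3 were wild type H1299 cells. No library carried a control plasmid, so MTSS1, the tag, the selection and the sorting cannot be told apart. Whether the overexpressing cells were 1 clone or a pool, and whether replicates were separate cultures, is not stated in the labels, so p-values measure the spread between these libraries. Per the labels' protocols, HEK293T cells were used in the transfection.

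As a check of the labels, MTSS1 had 550, 544 and 568 CPM in overexpressing libraries, against 24.2, 17.9 and 24.3 CPM in wild type (edgeR adjusted p = 3.6e-07, log2 fold change 4.65). Total counts per library ran from 13883380 to 29479453. Both replicate 1 libraries stood apart from the other 4 on the first principal component, which held 34.8% of the variance. Of the 4 markers of simple epithelium, KRT8 fell to 49.5 CPM in overexpressing cells, against 165 CPM in wild type (edgeR adjusted p = 0.011, but 0.055 in 1 of 6 fits without a library), and KRT18 averaged 299 and 521 CPM (edgeR adjusted p = 0.061). KRT7 (1.77 and 0.856 CPM) and EPCAM (0.88 and 0.557 CPM) lay the other way without overlap, but neither met the threshold (edgeR adjusted p = 0.16 and 0.44). Of the 4 lung markers, SFTPB had 0 counts and SFTPC 1 count in all. NAPSA had 13 counts in overexpressing and 24 in wild type cells, too few for a test. NKX2-1 averaged 2.63 CPM in overexpressing and 1.20 CPM in wild type cells and did not pass (edgeR adjusted p = 0.12). Summed over the 4 epithelial markers, CPM ranged from 256 to 467 in overexpressing cells and from 569 to 850 in wild type cells, and KRT8 and KRT18 made up nearly all of the sum. Of the 3 mesenchyme markers, FN1 rose (53.3 and 35.9 CPM in overexpressing and wild type cells, edgeR adjusted p = 0.038, lost without any 1 library), SPARC fell (1.48 and 4.94 CPM, edgeR adjusted p = 0.022, lost in 4 of 6 such fits) and VIM did not pass (edgeR adjusted p = 0.58). Their sum, nearly all of it VIM, ranged from 4618 to 4853 CPM in overexpressing cells and from 4294 to 4508 CPM in wild type cells. The part of these differences in the results below was not tested. Among 5 genes used for HEK293 cells, PAX2 had 2 and 6 counts in overexpressing and wild type cells, and the others were present in every library. NEFL, NEFM and INA averaged 4.58, 5.39 and 175 CPM in overexpressing and 4.42, 5.19 and 166 CPM in wild type cells, with overlap. LIN28B averaged 213 and 290.5 CPM without overlap (log2 fold change -0.45, edgeR adjusted p = 0.060, but 1.4e-04 with neighbouring library numbers as a block). The 50 nearest tested genes on chromosome 6 had a median log2 fold change of -0.25, and against these neighbours LIN28B had one of -0.20 (edgeR adjusted p = 0.46). The summed CPM of these 5 genes ranged from 359 to 427 in overexpressing cells and from 408.5 to 511 in wild type cells. In bulk RNA, fewer cells of a kind and less RNA per cell cannot be told apart. Some broadly expressed genes had very few counts (B2M had 23 in overexpressing and 34 in wild type cells), so a count near 0 is a listed value and not proof of a silent gene.

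Classical cadherins join neighbouring cells at adherens junctions, where their tails bind β-catenin and p120-catenin, and α-catenin links them to actin. Epithelia rely on E-cadherin (CDH1), while N-cadherin (CDH2) prevails in mesenchymal and neural cells. The clustered protocadherins sit in 3 tandem arrays on chromosome 5, named PCDHA, PCDHB and PCDHG. In neurons, each cell uses a small choice of their promoters, and the resulting set of surface proteins marks the cell. Genes of the PCDHA and PCDHG arrays each have a variable first exon of their own that is spliced to constant exons shared across the array, whereas PCDHB genes have no such shared exons. The CELSR proteins act in planar cell polarity with Frizzled, Vangl and Prickle proteins, and FAT and Dachsous (DCHS) proteins bind each other between cells.

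Promoters of the PCDHB array share a stretch of letters, shown here because PCDHB genes supplied 1 of the 2 calls described below. Promoter windows of 250 bases before to 50 after the gene's start (RefSeq, GRCh38.p14) were found for 79 of the 103 genes and for 14 of the 16 PCDHB genes. No window was found for CELSR1, PCDHB6 and PCDHB11. Words of 8 letters were counted over the PCDHB windows, and GTGGCGCT was taken because no other word lay in more of them. Its high share in these windows follows from that choice and is no test. The word GTGGCGCT, searched on both strands, lay in 13 of the 14 windows, always on the gene's strand. GGTGGCGC, which overlaps it by 7 letters, lay in as many. The first letter of GTGGCGCT lay 1 to 83 bases before the start given by RefSeq. In PCDHB8, where that distance was 1 base, the word ran across the start. GTGGCGCT was in 1.15% of all 35116 promoter windows, in 0 of 13 PCDHA windows and in 0 of 25 windows of 20 PCDHG genes, some of which have several starts. The whole PCDHB5 window (chr5:141134956-141135255, plus strand, GRCh38.p14), from the PCDHB gene with the highest mean CPM, reads as follows, with the shared word in capitals.
PCDHB5: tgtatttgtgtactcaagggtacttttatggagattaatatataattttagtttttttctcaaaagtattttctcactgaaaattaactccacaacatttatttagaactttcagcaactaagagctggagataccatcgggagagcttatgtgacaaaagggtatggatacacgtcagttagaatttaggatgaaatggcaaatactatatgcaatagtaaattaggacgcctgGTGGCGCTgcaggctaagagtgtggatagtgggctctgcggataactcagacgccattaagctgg

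Further PCDHB windows are shown as 40 bases around the same word, again in capitals, from well expressed genes (PCDHB2 and PCDHB14), a gene near 1 CPM (PCDHB10) and a pair of genes with almost no counts (PCDHB16 and PCDHB8). They are plus-strand stretches of chromosome 5 in GRCh38.p14, at chr5:141094540-141094579, chr5:141223259-141223298, chr5:141192295-141192334, chr5:141182306-141182345 and chr5:141177773-141177812 in the order given.
PCDHB2: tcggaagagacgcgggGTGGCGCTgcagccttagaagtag
PCDHB14: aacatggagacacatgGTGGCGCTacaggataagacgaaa
PCDHB10: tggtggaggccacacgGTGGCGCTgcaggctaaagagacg
PCDHB16: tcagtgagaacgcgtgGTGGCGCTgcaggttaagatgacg
PCDHB8: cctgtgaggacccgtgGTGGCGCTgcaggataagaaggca
The word lay in windows of genes with high and with very low levels: mean CPM over the 6 libraries was 23.6 for PCDHB5, 17.3 for PCDHB2 and 6.76 for PCDHB14, but 0.114 for PCDHB16 and 0.0606 for PCDHB8. The 1 window without it belonged to PCDHB1, at 0.0455 CPM. CGCT, the last 4 letters of the word, lay on 1 strand or the other in 12 of 13 PCDHA windows, 14 of 14 PCDHB windows and 25 of 25 PCDHG windows, against 70% of all windows.

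Few cadherin genes differed between the groups. CELSR1 and PCDHB6 rose in MTSS1-overexpressing cells, and 45 of the 47 tested members, CDH2 and FAT1 among them, did not pass the test (edgeR's quasi-likelihood test, Benjamini-Hochberg adjusted over 16091 genes, threshold 0.05). That is 4.26% of the members tested, beside a background of 4.28% over all tested genes, (1.82% higher and 2.45% lower). Of the 33 expressed members 6.06% were called, against 4.71% of all tested genes at that level. Neither share stood far from its background. None fell by this test (0 by edgeR and 0 by DESeq2, 2 lower and 5 higher at an unadjusted p under 0.05). The share of members under that unadjusted level was 14.9%, against 19.8% of all tested genes. The median log2 fold change of the 33 expressed members was 0.03, against 0.00 over all tested genes at or above 1 CPM, and it ran from -0.90 (PCDHB10) to 1.36 (PCDHA4).

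**Figure D1:**
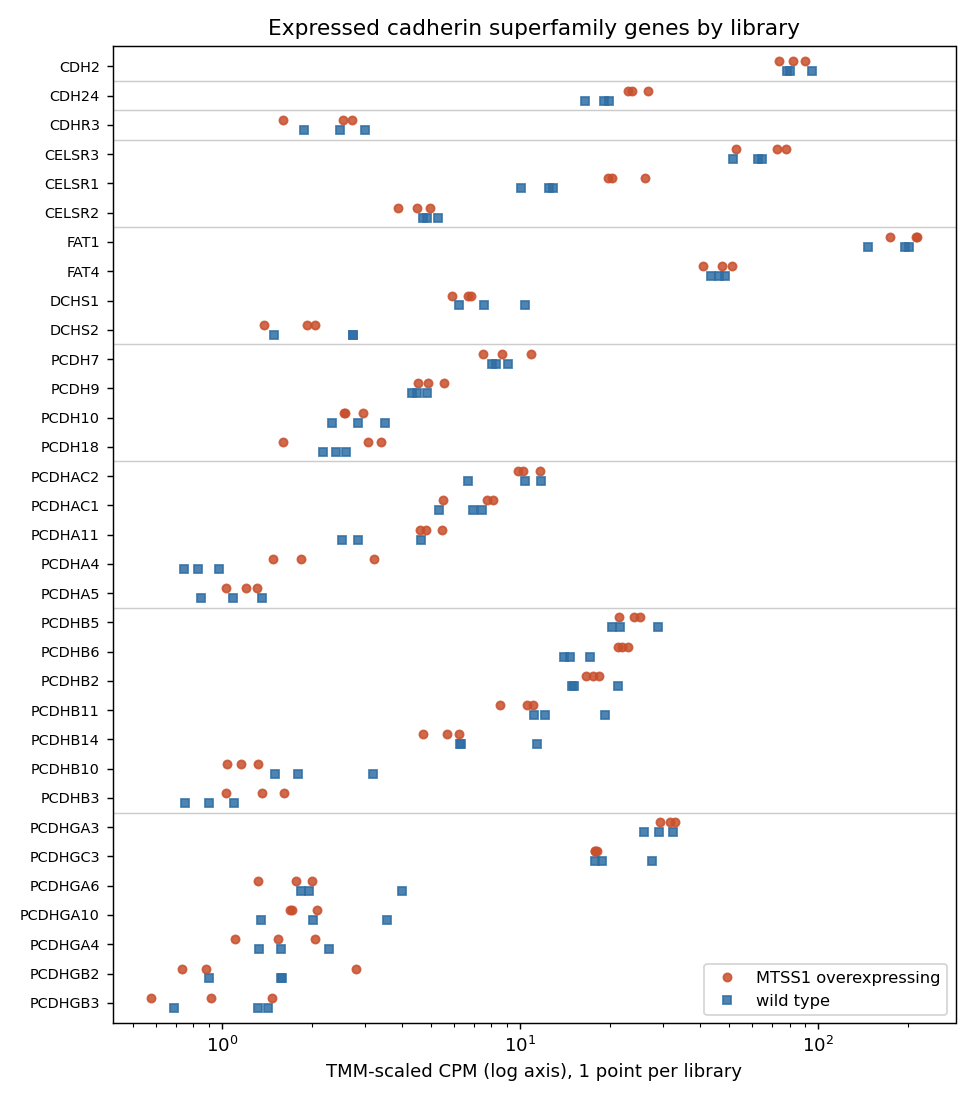
CPM of the 33 expressed cadherin superfamily genes on a log axis, with 1 point per library, circles for MTSS1-overexpressing and squares for wild type cells, grouped by subfamily. FAT1 and CDH2 lie farthest to the right, and the circles of CELSR1, PCDHB6, CDH24 and PCDHA4 lie wholly to the right of their squares.

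Among the 5 type I classical cadherins, N-cadherin (CDH2, chromosome 18, 27950966 to 28177446, GRCh38) was the expressed one. It had 81.9, 73.8 and 89.8 CPM in overexpressing libraries, against 78.7, 94.99 and 80.2 CPM in wild type. The groups overlapped, and the log2 fold change of -0.05 did not pass the test (95% interval -0.29 to 0.19, edgeR adjusted p = 0.86). Per kilobase of exon, CDH2 had the highest level of all members, with 16.5 CPM per kb in overexpressing and 17.1 in wild type cells. E-cadherin (CDH1), by contrast, had 7 counts over the overexpressing and 4 over the wild type libraries. Retinal cadherin (CDH4), P-cadherin (CDH3) and muscle cadherin (CDH15) had 2, 7 and 20 counts over all libraries.

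The 13 type II cadherins share the fold of type I but lack the adhesive motif of that type. Of these genes, CDH24 was the expressed one and 10 had 0 counts in every library. CDH24 (chromosome 14, 23047062 to 23057538) stood at 26.8, 23.7 and 23.0 CPM in overexpressing libraries, against 19.8, 16.5 and 19.1 CPM in wild type. Each overexpressing library was above each wild type library, but the log2 fold change of 0.41 did not pass (95% interval 0.13 to 0.68, edgeR adjusted p = 0.098, or 0.0094 with neighbouring library numbers as a block). The 50 nearest tested genes on chromosome 14 had a median log2 fold change of 0.25, and against these neighbours CDH24 had one of 0.16 (edgeR adjusted p = 0.62). The other type II genes with counts were CDH11, the cadherin of osteoblasts and mesenchyme, with 3 counts in overexpressing and 2 in wild type cells, and the endothelial CDH5, with 2 and 1.

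CDH13, CDH17, CDH23 and CDH26 had 10 or fewer counts in all, and CDH16 had none. A count of 0 allows a level of up to 0.22 CPM in the shallowest library and 0.099 CPM in the deepest (3 counts, counting error only). Of the 5 cadherin-related CDHR genes, CDHR3, the receptor for rhinovirus C on airway cells, was expressed at 2.71, 2.53 and 1.60 CPM in overexpressing libraries, against 3.02, 1.88 and 2.475 CPM in wild type. Its groups overlapped, with a log2 fold change of -0.11 (95% interval -0.82 to 0.60, edgeR adjusted p = 0.90).

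CELSR1, a seven-pass cadherin of planar cell polarity (ENSG00000075275, chromosome 22, 46360834 to 46537170), had the smallest p of any member. It stood at 20.3, 26.1 and 19.6 CPM in overexpressing libraries, against 12.8, 10.1 and 12.45 CPM in wild type, with no overlap. The means were 22.0 ± 3.56 and 11.8 ± 1.49 CPM (SD, n = 3), so the gene rose 1.88-fold (edgeR adjusted p = 0.015, log2 fold change 0.91 with an SE of 0.16). Leaving out 1 library at a time kept a log2 fold change of 0.77 to 0.99, but the call was lost in 3 of 6 fits: without MTSS1 overexpressing replicate 2 or wild type replicate 2 or 3 (highest adjusted p 0.058). CELSR3, the paralog best known from axon guidance, had the highest level per length of this subfamily, at 4.87 CPM per kb in overexpressing and 4.3 in wild type cells. It stood at 72.3, 77.7 and 52.7 CPM in overexpressing libraries, against 62.6, 64.5 and 51.9 CPM in wild type, and did not pass (log2 fold change 0.18, 95% interval -0.15 to 0.51, edgeR adjusted p = 0.57). CELSR2 lay between 3.88 and 4.99 CPM in overexpressing and between 4.72 and 5.29 CPM in wild type libraries (edgeR adjusted p = 0.72). A difference between the changes of CELSR1 and its paralogs was not tested.

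FAT1, a giant cadherin known as a tumour suppressor and as a regulator of actin at the cell edge, came next after CDH2 per length, at 12.4 CPM per kb in overexpressing and 11.2 in wild type cells. It stood at 212, 174 and 214 CPM in overexpressing libraries, against 194, 147 and 201 CPM in wild type. The lowest overexpressing and the lowest wild type library were both replicate 2. The log2 fold change of 0.15 did not pass (95% interval -0.15 to 0.44, edgeR adjusted p = 0.61), but it did with neighbouring library numbers as a block (0.15, edgeR adjusted p = 0.045). FAT4, a receptor for Dachsous, stood at 47.5, 40.9 and 51.5 CPM in overexpressing libraries and at 46.4, 43.5 and 48.5 CPM in wild type (log2 fold change 0.02, 95% interval -0.23 to 0.26). Its partner DCHS1 averaged 6.46 ± 0.513 CPM in overexpressing and 8.04 ± 2.12 CPM in wild type cells (SD, n = 3, edgeR adjusted p = 0.46). DCHS2 averaged 1.79 and 2.33 CPM (edgeR adjusted p = 0.61), and FAT2 and FAT3 had 7 counts each in all. The 7 counts of FAT3 were all in MTSS1 overexpressing replicate 2.

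Of the 13 protocadherins outside the arrays, 4 were expressed and 6 were tested, and none passed the test (0 by DESeq2 too, 1 at an unadjusted p under 0.05). PCDH7, which has been studied as a driver of lung cancer growth, stood at 8.66, 7.49 and 10.9 CPM in overexpressing libraries, against 8.26, 8.03 and 9.08 CPM in wild type (log2 fold change 0.09, 95% interval -0.30 to 0.48, edgeR adjusted p = 0.84). PCDH9, PCDH10 and PCDH18 averaged 5.00, 2.70 and 2.70 CPM in overexpressing and 4.56, 2.89 and 2.39 CPM in wild type cells. The gene with the unadjusted p under 0.05 was PCDH19, an X-linked protocadherin linked to epilepsy, which was under the level called expressed. It had 60 counts in overexpressing and 31 in wild type libraries (edgeR adjusted p = 0.16, log2 fold change 1.16). The 50 nearest tested genes had a median of 0.37. PCDH11X and PCDH11Y, near-identical copies whose reads may not be separable, PCDH8 and PCDH20 had 0 counts. PCDH20 shares 95.8% of its exon length with another gene on the same strand, so reads there may have been left uncounted as ambiguous.

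**Figure D2:**
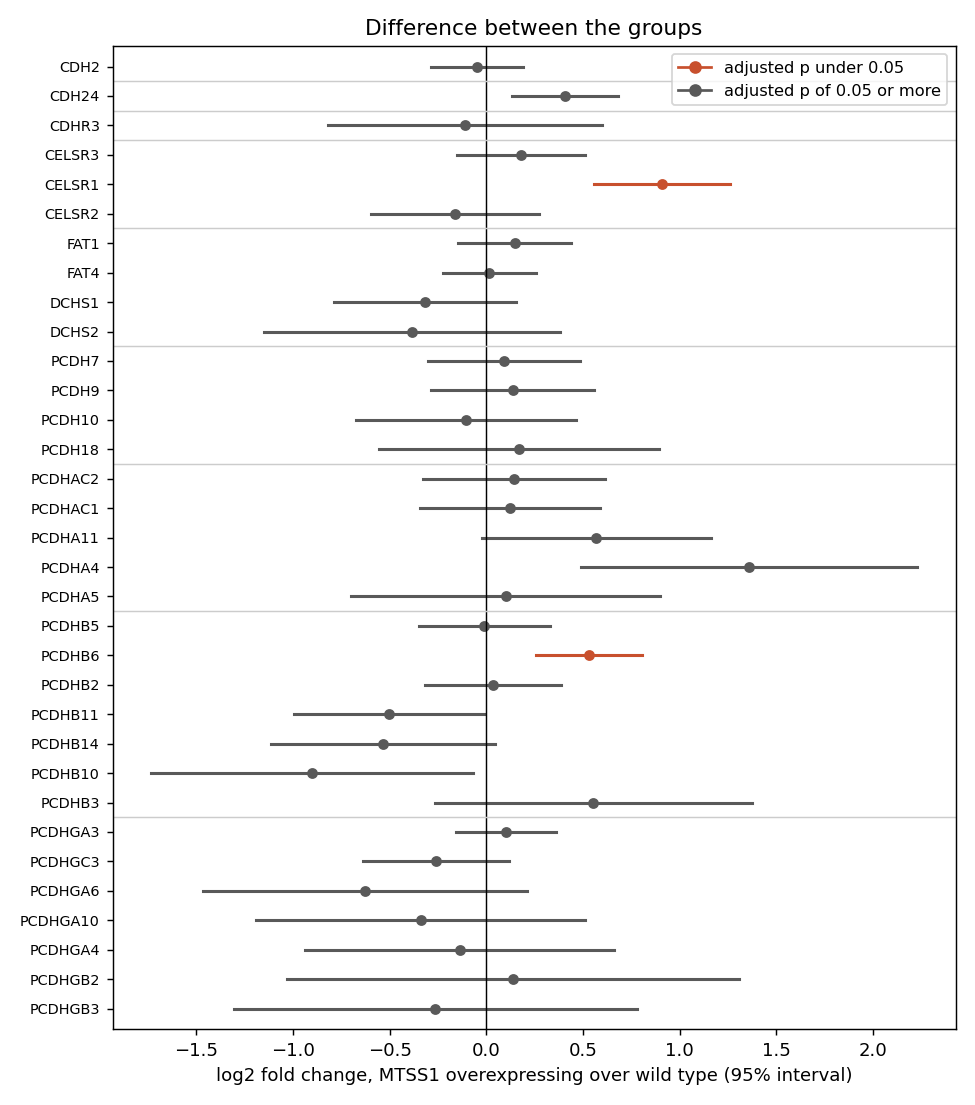
Log2 fold change of MTSS1-overexpressing over wild type cells with its 95% interval for the 33 expressed members, grouped by subfamily, with genes under an edgeR adjusted p of 0.05 in orange. CELSR1 (0.91) and PCDHB6 (0.53) are the orange points, and the widest intervals belong to genes near 1 CPM.

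The arrays gave 53 of the 103 members and 19 of the 33 expressed ones. Per gene, CPM varied widely within each array, and well expressed genes lay beside genes near 0. In PCDHA, the C-type genes PCDHAC2 and PCDHAC1 at the end of the array had 10.6 ± 0.964 and 7.10 ± 1.39 CPM in overexpressing and 9.59 ± 2.61 and 6.57 ± 1.08 CPM in wild type cells (SD, n = 3). PCDHA11, PCDHA4 and PCDHA5 were the other expressed genes, while PCDHA2 had 0 counts and PCDHA1, PCDHA3 and PCDHA7 had 4, 1 and 3 in all. In PCDHB, the 5 genes PCDHB5, PCDHB6, PCDHB2, PCDHB11 and PCDHB14 each had a mean over 6 CPM, and PCDHB10 and PCDHB3 had 1.67 and 1.12 CPM. In PCDHG, PCDHGA3 and PCDHGC3 stood at 30.3 and 19.6 CPM over the 6 libraries, and none of the other 20 genes was above 2.15 CPM. The exons of expressed PCDHA and PCDHG genes are shared with other genes on the same strand over 21.3% (PCDHA4) to 46.5% (PCDHA11) of their length, so how reads in the constant exons were counted bears on every level given for these arrays. Expressed PCDHB genes share at most 3.5% on the same strand and up to 15% with genes on the other strand (PCDHB2), and similar PCDHB copies may share reads too.

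**Figure D3:**
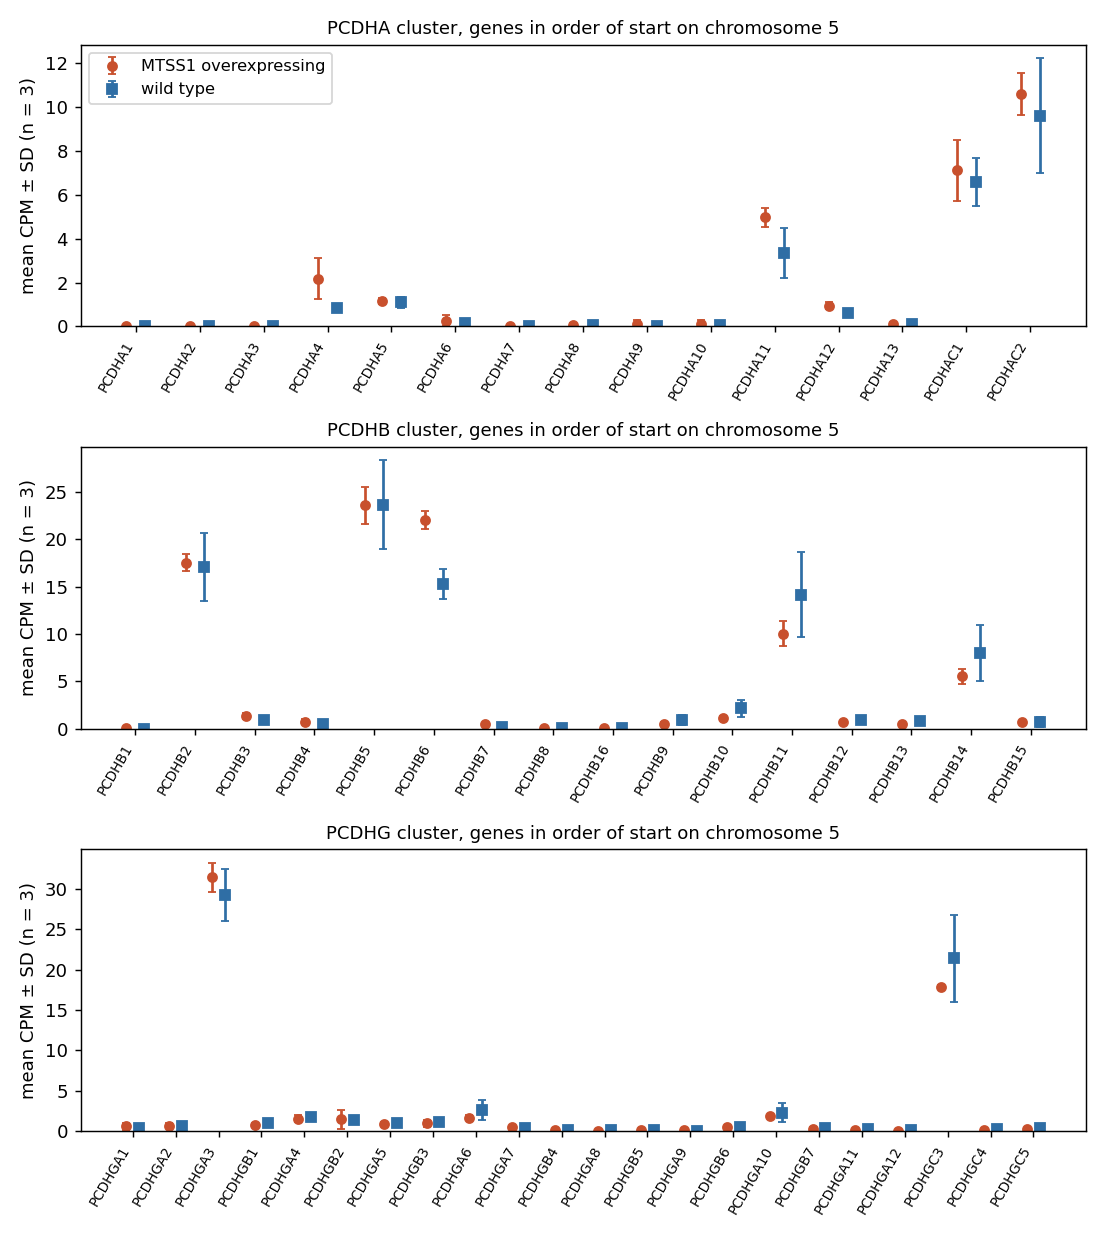
Mean CPM with SD (n = 3) of every gene of the PCDHA, PCDHB and PCDHG arrays, in order of start on chromosome 5, with circles for MTSS1-overexpressing and squares for wild type cells. A few genes stand well above neighbours near 0 in each array, with PCDHGA3 at 30.3 CPM and PCDHB5 at 23.6 CPM over the 6 libraries.

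PCDHB6 (ENSG00000113211, chromosome 5, 141150022 to 141153287) was the array gene that passed the test. It stood at 21.2, 21.9 and 23.0 CPM in overexpressing libraries, against 14.04, 14.6 and 17.1 CPM in wild type, with no overlap. The means were 22.0 ± 0.925 and 15.2 ± 1.60 CPM (SD, n = 3), so the gene rose 1.45-fold (edgeR adjusted p = 0.043, log2 fold change 0.53 with an SE of 0.12). The call was lost without any 1 library (edgeR adjusted p from 0.070 to 0.14), with log2 fold changes of 0.48 to 0.62. Its neighbour PCDHB5, which holds the shared promoter word, had 6.92 CPM per kb in overexpressing and 6.94 in wild type cells, beside 6.75 and 4.67 for PCDHB6. PCDHB5 stood at 25.2, 21.5 and 24.0 CPM in overexpressing libraries and at 20.3, 28.98 and 21.6 CPM in wild type. The log2 fold change of PCDHB5 was -0.01 (95% interval -0.35 to 0.33), and a difference between the changes of the 2 genes was not tested. The 50 nearest tested genes outside the arrays had a median log2 fold change of -0.05.

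Another 3 PCDHB genes had lower CPM in every overexpressing library than in any wild type library, without passing the test. PCDHB11 had 10.5, 11.1 and 8.56 CPM in overexpressing libraries, against 11.1, 19.3 and 12.1 CPM in wild type, and PCDHB14 had 6.24, 5.68 and 4.72 CPM, against 6.30, 11.4 and 6.26 CPM. PCDHB10 had 1.32, 1.04 and 1.16 CPM in overexpressing and 1.80, 3.20 and 1.5 CPM in wild type libraries. In all 3 genes wild type replicate 2 was far above the other libraries, and the other wild type libraries were also above the overexpressing ones, by a small margin in PCDHB11 and PCDHB14. The fit gave log2 fold changes of -0.50, -0.54 and -0.90 and edgeR adjusted p of 0.24, 0.29 and 0.21. Without wild type replicate 2 they were -0.22, -0.19 and -0.50. PCDHB11 passed with neighbouring library numbers as a block (edgeR adjusted p = 0.029).

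The same library was high across much of the PCDHB and PCDHG arrays. PCDHGC3 had 18.0, 17.9 and 17.8 CPM in overexpressing libraries, against 17.8, 27.6 and 18.8 CPM in wild type, and PCDHGA6 had 1.76, 2.00 and 1.32 CPM, against 1.96, 3.998 and 1.84 CPM. Summed over all 16 PCDHB genes, the overexpressing libraries held 87.4, 83.2 and 84.8 CPM and the wild type libraries 73.3, 105.8 and 77.6 CPM. The 22 PCDHG genes summed to 62.9, 62.4 and 60.5 CPM in overexpressing and to 55.8, 79.8 and 60.5 CPM in wild type libraries. The PCDHA sums differed in pattern, with 26.3, 29.1 and 27.5 CPM in overexpressing libraries and 24.3, 19.96 and 23.4 CPM in wild type, where replicate 2 was the lowest of the 6. Wild type replicate 2 was the highest library for 10 of 19 expressed array genes and for 4 of 14 other expressed members. Together that is 42.4% of the expressed members, against 21.2% of all tested genes at or above 1 CPM.

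**Figure D4:**
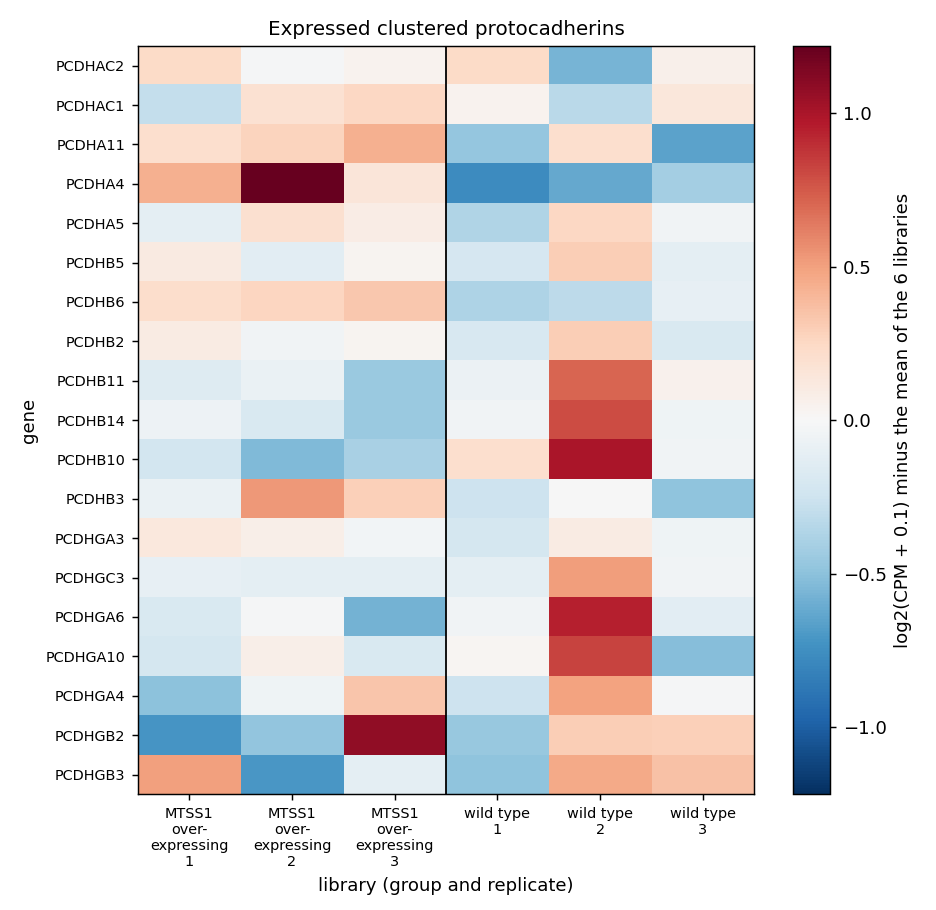
Each cell gives log2(CPM + 0.1) of an expressed array gene in a library minus its mean over the 6 libraries, with MTSS1-overexpressing libraries on the left and wild type on the right. The column of wild type replicate 2 is red for PCDHB11, PCDHB14, PCDHB10 and most PCDHG genes, and blue for PCDHAC2, PCDHAC1, PCDHA4 and PCDHB6. For PCDHA4 and PCDHB6 the other wild type columns are blue too.

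In the PCDHA array all 5 expressed genes had a positive log2 fold change, although those of PCDHAC2, PCDHAC1 and PCDHA5 turned negative without 1 wild type library (-0.07, -0.01 and -0.05 at their lowest). None passed the test (0 by DESeq2, 1 at an unadjusted p under 0.05). That gene, PCDHA4, stood at 1.83, 3.23 and 1.48 CPM in overexpressing libraries, against 0.742, 0.826 and 0.975 CPM in wild type. The groups did not overlap, and the log2 fold change of 1.36 had a 95% interval of 0.49 to 2.23 (edgeR adjusted p = 0.085, but 0.023 with the block and 0.032 without the low-count filter). PCDHA11 had 4.62, 4.84 and 5.44 CPM in overexpressing and 2.86, 4.63 and 2.51 CPM in wild type libraries (log2 fold change 0.57, edgeR adjusted p = 0.27). PCDHGA3, the array gene with the highest CPM, stood at 33.0, 31.7 and 29.4 CPM in overexpressing libraries, against 26.0, 32.4 and 29.2 CPM in wild type (log2 fold change 0.10, 95% interval -0.16 to 0.36, edgeR adjusted p = 0.71). PCDHGB2 was set by a single library of the other group: it had 0.734, 0.883 and 2.80 CPM in overexpressing and 0.901, 1.59 and 1.575 CPM in wild type libraries, and its log2 fold change of 0.14 became -0.73 without MTSS1 overexpressing replicate 3.

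Over the 33 expressed members, the groups did not overlap in 4 genes that were higher (12.1%, against 12.8% of all tested genes at this level) and in 3 that were lower (9.09%, against 14.2%). With neighbouring library numbers as a block, 5 members were called higher and 1 lower. These 6 are 12.8% of the 47 tested members, against 22.7% of all tested genes in that fit.

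The partners of cadherins were read from 5 lists compiled for this purpose, with 49 genes of which 42 were tested. CTNND2 rose, AFDN, FZD6 and PRICKLE1 fell, and 38 did not pass the test. That is 9.52% called, beside the background of 4.28%. The lists were compiled with earlier results of these data known, so this share is no test of them. Of the catenins found in most adherens junctions, none of the 4 given here passed. β-Catenin (CTNNB1) averaged 292 ± 8.60 CPM in overexpressing and 303 ± 4.35 CPM in wild type cells, α-catenin (CTNNA1) 476 ± 24.3 and 477 ± 28.8 CPM, and p120-catenin (CTNND1) 195 ± 7.25 and 203 ± 12.8 CPM (SD, n = 3). Their 95% intervals of the log2 fold change ran from -0.21 to 0.11, from -0.19 to 0.18 and from -0.24 to 0.12. Plakoglobin (JUP) averaged 11.7 ± 3.95 and 11.8 ± 0.939 CPM.

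CTNND2, encoding δ-catenin, a p120 relative of neurons, stood at 3.74, 3.38 and 2.84 CPM in overexpressing libraries, against 0.901, 0.198 and 0.788 CPM in wild type. It was 5.39-fold higher (edgeR adjusted p = 0.025, log2 fold change 2.43 with an SE of 0.48), and the call was lost in 4 of 6 fits without 1 library, those without any 1 overexpressing library or wild type replicate 3 (highest edgeR adjusted p 0.083). AFDN, encoding afadin, which links nectins to actin at adherens junctions, had 229, 214 and 232 CPM in overexpressing libraries, against 311, 334 and 314 CPM in wild type. The change passed (edgeR adjusted p = 0.0098, log2 fold change -0.51 with an SE of 0.08), also in all 6 fits without 1 library. The 50 nearest tested genes on chromosome 6 had a median of -0.18, and against these neighbours it was -0.33 (edgeR adjusted p = 0.069).

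Of the 10 tested planar polarity partners of FAT, DCHS and CELSR, 0 were higher and 2 lower. That is 20%, against 4.28% of all tested genes. With neighbouring library numbers as a block, 2 were higher and 4 lower, in a fit that called 22.7% of all tested genes. DESeq2 called 4 of the partners, and 1188 genes in all. The list was chosen with earlier results of these data known, so these shares are no test of it. PRICKLE1, a cytoplasmic planar polarity protein, stood at 7.63, 6.64 and 6.80 CPM in overexpressing libraries, against 13.5, 14.8 and 12.97 CPM in wild type. The change passed (edgeR adjusted p = 0.0081, log2 fold change -0.98 with an SE of 0.14), also in all 6 fits without 1 library. FZD6, a Frizzled receptor of planar polarity, had 73.1, 70.6 and 74.6 CPM in overexpressing libraries and 93.8, 108.9 and 95.9 CPM in wild type (edgeR adjusted p = 0.022, log2 fold change -0.45 with an SE of 0.09). Its call was lost in 5 of 6 fits without 1 library (highest edgeR adjusted p 0.084), all but that without wild type replicate 1. PRICKLE2 averaged 0.103 and 0.879 CPM in overexpressing and wild type cells and did not pass (edgeR adjusted p = 0.067, but 0.0087 with the block, 0.004 without the low-count filter and 0.035 in DESeq2). DVL2, a Dishevelled protein that relays Frizzled signals, averaged 101 ± 19.8 CPM in overexpressing and 72.4 ± 8.06 CPM in wild type cells (SD, n = 3), with no overlap. It did not pass (log2 fold change 0.48, edgeR adjusted p = 0.091), but did with the block (3.6e-04), without the low-count filter (3.6e-04) and in DESeq2 (0.014). The nearest tested genes on chromosome 17 had a median log2 fold change of 0.21. Against these neighbours DVL2 had one of 0.27 and did not pass (edgeR adjusted p = 0.42). It passed in 0 of 6 fits without 1 library (edgeR adjusted p from 0.084 to 0.26). FJX1, related to a kinase that acts on Fat and Dachsous in flies, had a log2 fold change of 0.36 and the Frizzled receptor FZD3 one of -0.44, and these passed with the block alone (edgeR adjusted p = 0.0041 and 0.021, against 0.24 and 0.12 without it). VANGL2 stayed under 0.12 CPM in every library.

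**Figure D5:**
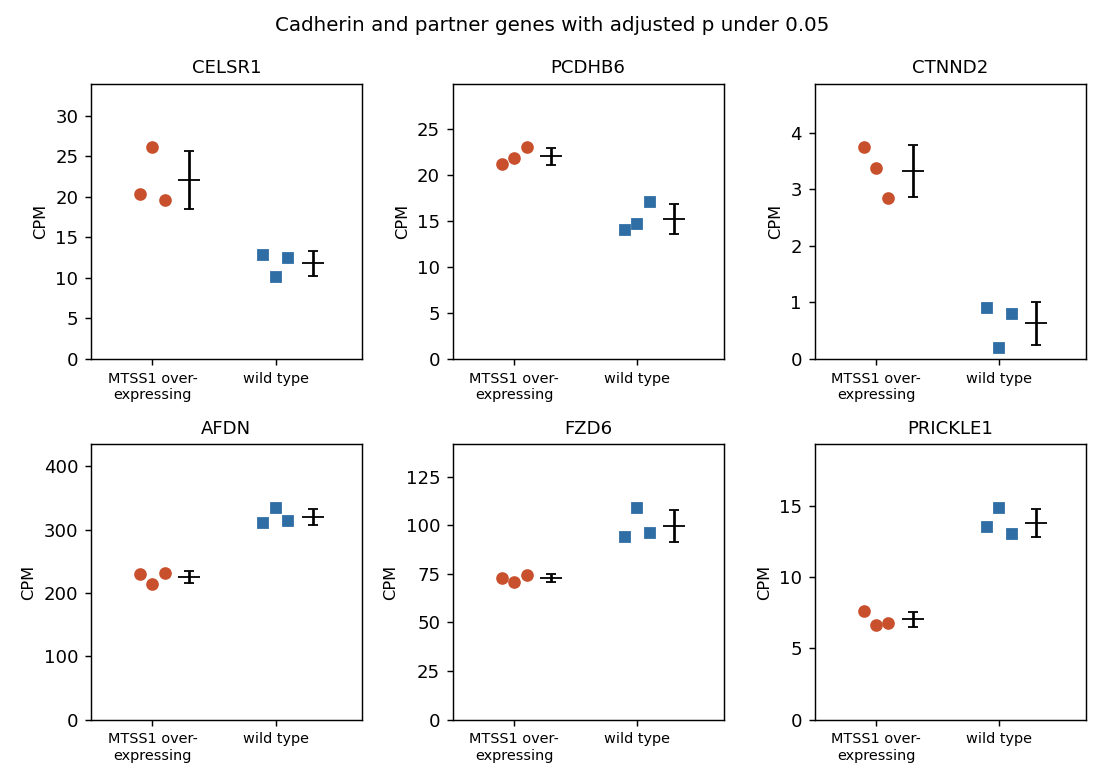
CPM by library of the 2 cadherin genes and 4 partner genes with an edgeR adjusted p under 0.05, MTSS1-overexpressing cells on the left and wild type on the right, with mean and SD (n = 3) beside the points. In each panel the 3 libraries of a group lie wholly above or below those of the other, and CELSR1, PCDHB6 and CTNND2 are higher in the overexpressing cells.

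None of 8 tested desmosome genes passed (0 at an unadjusted p under 0.05 and 0 by DESeq2), and DSG2, DSP and PKP2 were the ones with over 40 CPM. None of 4 tested repressors of cadherin genes passed either (0 at an unadjusted p under 0.05 and 0 by DESeq2). SNAI2, the fifth gene listed, had too few counts for a test, with 3 in overexpressing and 35 in wild type libraries and no overlap in CPM. ZEB1 and ZEB2, repressors of CDH1, had log2 fold changes of 0.03 each (edgeR adjusted p = 0.92 and 0.91). Of the 10 chromatin regulators of protocadherin promoter choice, among them CTCF and the cohesin subunits RAD21, SMC1A, SMC3, STAG1 and STAG2, none passed. At an unadjusted p under 0.05 there were 3, beside 19.8% of all tested genes, and DESeq2 called 1. The block gave 2 higher and 4 lower, in a fit that called 22.7% of all tested genes. CTCF, which binds the array promoters, had 99.5, 109 and 121 CPM in overexpressing libraries and 99.5, 108 and 121 CPM in wild type.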

How the data were processed

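Poly(A) RNA of 6 NCI-H1299 libraries was prepared with a directional kit and sequenced from 1 end over 50 cycles, per the labels' protocols. The deposited table holds raw read counts per Ensembl gene, which the authors made with bcl2fastq, HISAT2 2.1.0 and HTSeq on GRCh38, per the submitters' processing notes. For the annotation release, counting mode and strand setting: not given in the sources used here. Reads of antisense partners may therefore be counted together. Symbols, gene types, exon lengths and coordinates came from a name table and GENCODE release 29.

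Tests used edgeR 4.0.16 under R 4.3.3 (TMM, filterByExpr, glmQLFit and glmQLFTest, two-sided, Benjamini-Hochberg over 16091 genes), and the script was tested on simulated data. SE and 95% intervals come from the quasi-likelihood F statistic. Alternatives were DESeq2 1.42.0, median-ratio size factors, no filter, a block, neighbour offsets and fits without libraries. Deviations from group means correlated at 0.66, 0.34 and 0.38 within the 3 pairs of neighbouring title numbers and at most at 0.10 between pairs. The labels do not say what neighbouring numbers share, so the block stays an alternative. Chi-square per degree of freedom between replicates lay from 14.7 to 28, which is beyond counting error. Every library was counted as its own replicate, but this spread cannot show whether replicates were separate cultures. Named genes were those past the threshold, CDH1 and CDH2, the member with the highest mean CPM of each subfamily and 4 catenins. The other expressed members and some partners were described as well, chosen after their values were seen, and all of those tested went through the alternatives. The members and lists were chosen with earlier results of these data known.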

Additional observations from a re-analysis of the deposited data

How the results depend on the processing

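The number of members called rested on the fit. CELSR1 and PCDHB6 were called with median-ratio size factors, DESeq2, no low-count filter and the neighbour offset. Without the filter PCDHA4 was called too, which makes 3 members, and the replicate block gave 5 members higher and 1 lower. Leaving out 1 library gave 0 to 1 higher and 0 lower, and leaving out both replicate 1 libraries gave 0 higher. Over all genes, 688 calls became 1188 with DESeq2, 1489 without the filter, 3651 with the block, 132 without both replicate 1 libraries and 145 to 346 without 1 library. Partner genes called higher were 2 with DESeq2, 2 without the filter, 5 with the block, 0 without both replicate 1 libraries and 0 to 1 without 1 library. Those called lower were 5 with DESeq2, 10 with the block and 0 without both replicate 1 libraries, and 2 to 3 without 1 library. Some of these fits held fewer libraries, and the cause of the differences between fits was not tested.

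Over 50 genes and 600 alternatives, 519 kept direction and call, 25 lost the call, 14 gained it and 42 turned sign, the last only in genes that did not pass. Without both replicate 1 libraries, log2 fold changes were -0.0122 for PCDHGA3, -0.087 for PCDHB2 and 0.13 for JUP. With the neighbour offset they were 0.0381 for PCDHB5, -0.0312 for FAT4, -0.168 for ZEB1 and -0.0513 for CTCF, and PCDHGB2 had -0.0244 with the block. Without 1 library the values lay from -0.121 to 0.041 for CDH2, -0.274 to 0.101 for CDHR3, -0.0685 to 0.22 for PCDH7, -0.0600 to 0.108 for FAT4, -0.233 to 0.057 for PCDH10 and -0.0534 to 0.448 for PCDH18. In the arrays they lay from -0.0664 to 0.307 for PCDHAC2, -0.00886 to 0.275 for PCDHAC1, -0.0451 to 0.283 for PCDHA5, -0.106 to 0.164 for PCDHB5, -0.0519 to 0.221 for PCDHB2, -0.616 to 0.132 for PCDHGA10, -0.376 to 0.117 for PCDHGA4, -0.735 to 0.435 for PCDHGB2 and -0.615 to 0.0303 for PCDHGB3. For partners they lay from -0.0448 to 0.045 for CTNNA1, -0.326 to 0.176 for JUP, -0.068 to 0.111 for ZEB1, -0.0119 to 0.0958 for ZEB2 and -0.0682 to 0.0826 for CTCF. With expression set at 0.5 or 2 CPM, 44 or 26 members counted as expressed. No difference could be tested for the 38 members with too few counts, and why their counts were low was not tested.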
